A study of Chromochloris zofingiensis with 38 samples.

Results

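The comparison described here set wild-type cells of Chromochloris zofingiensis 1 h after glucose was added (Glu, 4 libraries) against cells with no addition (None, 4 libraries). These 8 of the 38 libraries of the series were taken by their labels alone, and the rule that picks them uses no measured value. C. zofingiensis is a unicellular green alga, and all 38 libraries came from wild-type cultures, with no transgene or mutation given. At 1 h the series also held the TOR inhibitor AZD (3 libraries) and the groups labelled S (4 libraries) and GA (4 libraries), each name spelled as the labels give it. The labels do not say what S or GA stands for, how much glucose was given, or whether None received a mock addition. They also do not say whether replicates were separate cultures, so the p-values speak only for the variation among these libraries, part or all of which may be technical.

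Glucose is a carbon and energy source that C. zofingiensis can take up and use beside photosynthesis. The alga is known to shut down photosynthesis reversibly when fed glucose, with a build-up of storage lipid and of the red ketocarotenoid astaxanthin over days. In other eukaryotes the protein kinase TOR (target of rapamycin) links such nutrients to growth. The deposited table holds gene IDs only, with no names, products, lengths or sequences, and 0 of its 12459 IDs could be paired with a name from the sources used here. The markers of photosynthesis, glucose use or carotenoid synthesis were therefore not analysed here. Instead 2 IDs that rose and 2 that fell are named, picked as extremes by fold or CPM and not as typical of the response.

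Library totals ran from 28772522 to 47398170 counts in None and from 23139762 to 94879574 in Glu, where replicate 4 was the deepest and replicate 3 the shallowest. Levels are CPM, counts scaled to a common library size after adjustment by TMM (trimmed mean of M-values). They are not corrected for gene length and were compared between groups, not read as molar amounts. Being shares of a library, they cannot tell a fall of one RNA per cell from a rise of the others. Replicate pairs within Glu or None all differed beyond counting error, with a chi-square of 12.5 to 410 for each degree of freedom. Each library was counted as its own sample, though these differences do not show whether the replicates were separate cultures.

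Glu replicate 4 stood apart from its group. Its log2 CPM values lay 0.70 (root mean square over 12142 genes) from the mean of Glu replicates 1 to 3, where replicates 1, 2 and 3 lay 0.40, 0.46 and 0.58 from the means of their others and the None libraries 0.30 to 0.42. Replicate 4 lay nearer to the Glu mean than to any other group mean at 1 h, with distances of 0.80 to S, 0.88 to None, 1.12 to AZD and 1.13 to GA. At 1273 genes (10.5% of those tested) it differed at least 2-fold from replicates 1 to 3, 636 higher and 637 lower. For replicates 1, 2 and 3 the same counts were 149 and 193, 187 and 220, and 258 and 487. Genes with few counts were common among the 1273, whose median level was 8.61 CPM against 26.5 CPM over all genes tested.

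The departure of Glu replicate 4 resembled that of S replicate 1, the library of S that lay farthest from its own group (0.75). Across 12142 genes, which are not independent replicates, their departures had r = 0.52. Where Glu replicate 4 was at least 2-fold above its group, S replicate 1 had a median departure of 0.93 on the log2 scale, and where it was at least 2-fold below, -0.76. S replicate 1, at 40200478 counts, was also the deepest library of its group, where the other S libraries held 19520295 to 25359537. The part of depth in these departures was not tested. The median gene had an SD of log2 CPM of 0.17 in None, 0.29 in Glu and 0.21 in Glu without replicate 4.

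Within 1 h of glucose, 31.1% of the genes tested had changed. Of 12142 genes 2124 rose (17.5%) and 1657 fell (13.6%), at an adjusted p under 0.05 (quasi-likelihood test of edgeR over 38 libraries, p-values adjusted over all genes after Benjamini and Hochberg). Most changes were small. The risen genes had a median log2 fold change of 0.69 and the fallen genes -0.66, against 0.01 over all genes tested. The 5th and 95th percentiles over all genes tested were -0.85 and 1.04. At least 2-fold changes were found for 577 risen (4.75%) and 303 fallen genes (2.5%), and at least 4-fold changes for 60 (0.494%) and 28 (0.231%). For 1960 genes (16.1%) every Glu library lay above every None library, and for 1569 (12.9%) every Glu library lay below. The test called 1697 and 1275 of these. Smaller fits called fewer genes than the 3781 of the main fit, 2972 with the groups compared alone and 3120 with the libraries at 1 h alone. DESeq2, another test, called 4045.

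Which direction held more genes depended on the scaling. The rising share of 56.2% was 11.0% with library totals in place of TMM, which moved the median log2 difference of all genes to -0.45. It was 46.3% in a fit of the libraries at 1 h alone, where the libraries, the filter, the estimated spread and the scaling all changed together. Rises and falls are therefore stated relative to the middle of the expressed genes.

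S served as a second group without a glucose label. Against None in the same fit, 8 genes (0.0659%) differed in S, with 1493 genes at an unadjusted p under 0.05. Glu against S called 3362 genes (27.7%), of which 1921 rose (15.8%) and 1441 fell (11.9%). The comparisons of Glu with None and with S share the Glu libraries, so their calls are not separate evidence. The 2124 risen genes had a median log2 difference of 0.58 between Glu and S, and the 1657 fallen genes -0.58, against 0.01 over all genes tested. The count of 8 between S and None was 77 without S replicate 1, 36 (0.297%) without Glu replicate 4, 2 without S replicate 4 and 1 without any single None library or S replicate 2 or 3. A fit of the 8 libraries of Glu and S alone called 1479 genes.

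The response held without Glu replicate 4. With that library left out, 3121 genes (25.7%) were called, 1797 rising (14.8%) and 1324 falling (10.9%). Of the 3781 genes called with it, 2872 (76.0%) were called again in the same direction, which made up 92.0% of the calls without it, and 0 were called in the opposite direction. The 909 calls lost were divided into 443 rising and 466 falling, and 899 of them had a fold change of the same sign. Both fits share every other library, so their calls are not separate evidence and much of this overlap follows from the design. The kept calls had a median size of 0.73 with and 0.68 without replicate 4 on the log2 scale. Of the 577 genes risen at least 2-fold, 511 were still called rising without it and 372 still at 2-fold or more, and of the 303 fallen, 275 were still called falling and 203 at 2-fold or more. In all, 417 rising (3.44%) and 238 falling genes (1.96%) passed 2-fold without it. Rises of at least 4-fold went from 60 to 29 (0.239%) and 4-fold falls from 28 to 24 (0.198%). With Glu replicate 3, the shallowest library, left out instead, 4019 genes were called and 4-fold rises numbered 86. Over the 8 libraries left out in turn the count of calls ran from 3121, without Glu replicate 4, to 4019, without Glu replicate 3.

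**Figure D1:**
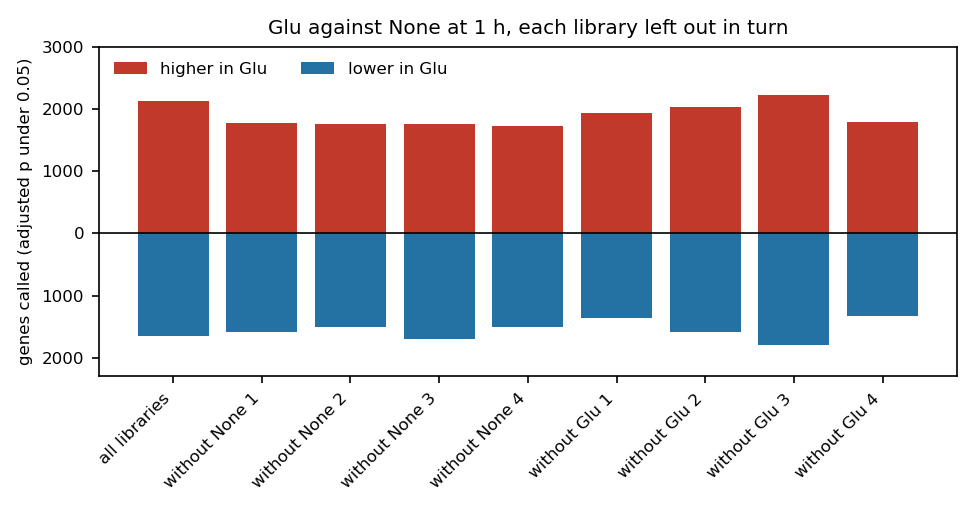
Genes called in Glu against None at 1 h with all libraries and with each of the 8 libraries left out in turn. Bars above 0 count genes higher in Glu and bars below 0 genes lower in Glu. Without Glu replicate 4 there were 1797 higher and 1324 lower, against 2124 and 1657 with all libraries.

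The left-out library itself showed the response. Of the 1797 genes called higher from Glu replicates 1 to 3, 1688 (93.9%) lay above the None mean in Glu replicate 4, and 90.3% lay above every None library. Of the 1324 genes called lower, 1229 (92.8%) lay below the None mean, and 86.2% lay below every None library. Over all genes tested, 50.4% lay above the None mean in replicate 4. The changes were larger in it than in the others, with a median log2 difference from None of 0.80 against 0.66 in replicates 1 to 3 for the higher genes and -0.80 against -0.66 for the lower. When another Glu library was left out and examined in this way, 98.3% of called genes lay on the called side in replicate 1, 96.5% in replicate 2 and 89.3% in replicate 3, against 93.5% in replicate 4. Both sides of this description use the None libraries, so no p-value was attached.

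**Figure D2:**
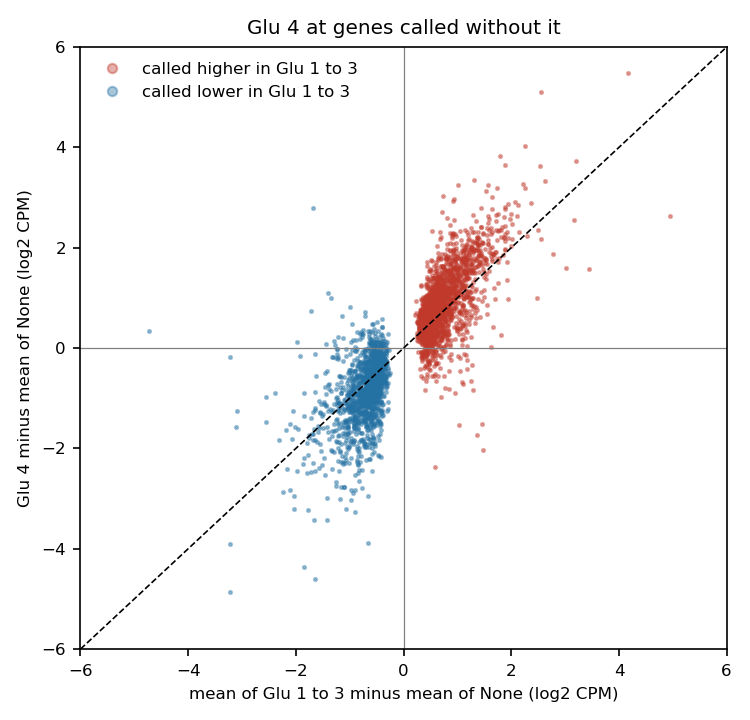
Each point is 1 of the genes called in Glu against None at 1 h without Glu replicate 4. The horizontal axis gives the mean of Glu replicates 1 to 3 minus the mean of None and the vertical axis Glu replicate 4 minus the mean of None, both in log2 CPM, and the dashed line marks equality. Of the red points, 93.9% lie above 0 on the vertical axis, and of the blue points, 92.8% lie below it.

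The 4 genes named were the rise and the fall with the largest fold and the rise and the fall with the largest difference in CPM, among 2251 genes (1458 rising and 793 falling) that were called with and without Glu replicate 4, did not overlap between the groups and reached a mean of 10 CPM in the higher group. Since these filters used the same contrast, their separation of the groups follows from the choice. The statistics after each gene are log2 fold changes, approximate standard errors (SE) and the adjusted p of the same edgeR model.

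Cz01g21060 had the largest rise by this rule. It stood at 7.07, 7.15, 10.6 and 6.39 CPM in None replicates 1 to 4, and at 135.7, 156, 123.5 and 343 CPM in Glu replicates 1 to 4. All Glu libraries were at least an order of magnitude above the None libraries, and replicate 4 lay far above the others. The means were 7.80 ± 1.89 and 189.5 ± 103 CPM (SD, n = 4 each), a rise of 24.3 times (log2 4.60 ± 0.42, adjusted p = 1.89e-10, edgeR). Without replicate 4 the rise was 17.7-fold (log2 4.15 ± 0.39, adjusted p = 4.33e-10). In S the gene stood at 28, 18.2, 12.3 and 9.32 CPM, so the S libraries lay between None and Glu, with only replicate 4 within the range of None. The log2 difference of 1.13 ± 0.38 between S and None did not pass (adjusted p = 0.265).

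Cz07g18160 gained the most CPM. None replicates 1 to 4 held 5295, 5885, 6971 and 5388 CPM, and Glu replicates 1 to 4 held 24876, 27093, 14108 and 27096 CPM. Here Glu replicate 4 lay beside replicates 1 and 2, and replicate 3 was the low one, still above every None library. In Glu it drew more counts than any other gene (rank 1 by mean CPM), and in None it ranked 3, without correction for length. It took 0.620, 0.686, 0.822 and 0.644% of all counts in the None libraries and 2.09, 2.30, 1.33 and 2.16% in the Glu libraries. Its mean went from 5884 ± 769 to 23293 ± 6212 CPM (SD, n = 4 each), a rise of 3.96 times (log2 1.98 ± 0.25, adjusted p = 1.37e-07, edgeR). Without replicate 4 the log2 change was 1.90 ± 0.26 (adjusted p = 9.31e-07, edgeR). The S libraries, at 6358, 11417, 11158 and 10000 CPM, lay below every Glu library. Replicate 1 was within the range of None and the others lay above it, and S against None did not pass (log2 0.73 ± 0.24, adjusted p = 0.265).

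Cz01g06080 had the largest fall by this rule. From 66.3, 74.1, 82.5 and 58.2 CPM in None replicates 1 to 4 it went to 7.58, 7.01, 7.64 and 2.34 CPM in Glu replicates 1 to 4. Glu replicates 1 to 3 lay close together and replicate 4 lower still. The means were 70.3 ± 10.4 and 6.14 ± 2.55 CPM (SD, n = 4 each), 11.6 times lower in Glu (log2 -3.54 ± 0.33, adjusted p = 1.97e-10, edgeR). Without replicate 4 the log2 change was -3.25 ± 0.31 (adjusted p = 7.92e-10, edgeR). S replicate 1 held 13.8 CPM where the other S libraries held 67.1, 48.5 and 47.8 CPM, so the 2 libraries that stood apart were both the lowest of their groups at this gene.

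Cz11g26070 lost the most CPM. It stood at 881, 952, 1218 and 851 CPM in None and at 692, 552, 418 and 462 CPM in Glu. The groups were separated by a narrow gap, between None replicate 4 and Glu replicate 1, and Glu replicate 4 lay within the range of the other Glu libraries. From 975 ± 167 CPM the mean went to 531 ± 121 CPM (SD, n = 4 each), 1.84 times lower (log2 -0.88 ± 0.18, adjusted p = 0.000304, edgeR), and without replicate 4 the log2 change was -0.82 ± 0.20 (adjusted p = 0.00210). The S libraries held 831 to 990 CPM, like None.

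**Figure D3:**
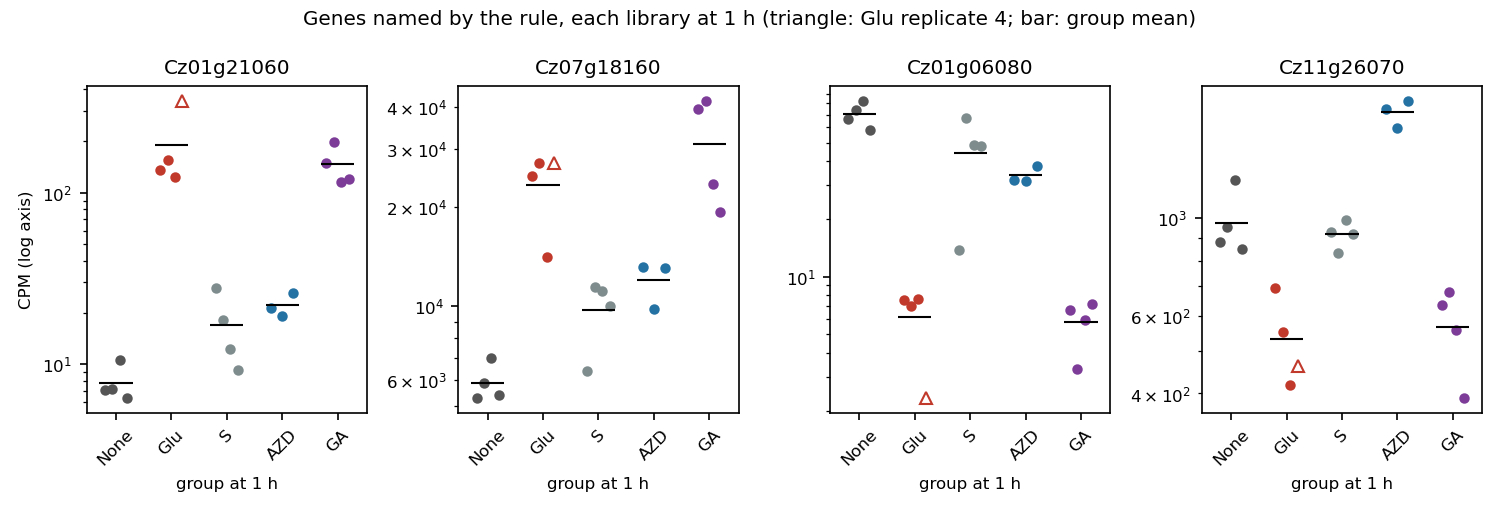
CPM of the 4 named genes in each library at 1 h, on a log axis, by group. Points are libraries, open triangles mark Glu replicate 4 and bars are group means. Glu and None do not overlap in any panel, as the naming rule requires, and Glu replicate 4 is highest at Cz01g21060 (343 CPM) and lowest at Cz01g06080 (2.34 CPM).

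The direction of change went with how many counts a gene drew. The 12142 genes were put into 5 classes of equal size by their mean log2 CPM over the 8 libraries, a description chosen after the data were seen. In the highest class (median 157 CPM) 1048 genes rose (43.1%) and 100 fell (4.12%), against 17.5% and 13.6% over all genes. In the lowest class (median 2.30 CPM) 123 rose (5.06%) and 393 fell (16.2%), and in the next (median 12.3 CPM) 138 rose (5.68%) and 597 fell (24.6%). Without Glu replicate 4 the highest class had 943 rising and 88 falling and the lowest 67 rising and 296 falling. Median log2 fold changes from the lowest to the highest class were -0.21, -0.19, -0.05, 0.11 and 0.35. With library totals in place of TMM they were -0.68, -0.65, -0.51, -0.36 and -0.12, so the order of the classes stayed while the sign of the upper classes turned.

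A change of scaling moves all classes of a library nearly alike, so the difference between the highest and the lowest class was taken in each library. The median departure of the highest class from the mean of the 8 libraries, less that of the lowest, was -0.34, -0.29, -0.34 and -0.33 on the log2 scale in None replicates 1 to 4. It was 0.41, 0.29, 0.20 and 0.32 in Glu replicates 1 to 4. All Glu libraries lay above all None libraries. Departures were taken from the mean of these same 8 libraries, so the opposite signs of the groups largely follow from the measure. The means were 0.30 ± 0.09 and -0.33 ± 0.02 (SD, n = 4 each), a difference of 0.63. The classes and this measure were chosen after these libraries were seen, so the difference is a description and no p-value is given. Without each library in turn the difference was 0.59 to 0.66, and with library totals in place of TMM it was 0.598. The S libraries had -0.57 in replicate 1 and -0.20, -0.07 and -0.04 in replicates 2, 3 and 4. In this measure S replicate 1 lay below the rest of its group, where Glu replicate 4 lay within the range of the other Glu libraries. In GA it was 0.34, 0.35, 0.26 and -0.03 in replicates 1 to 4, each above the -0.18, -0.18 and -0.33 of the AZD replicates, none of which entered the choice of classes.

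**Figure D4:**
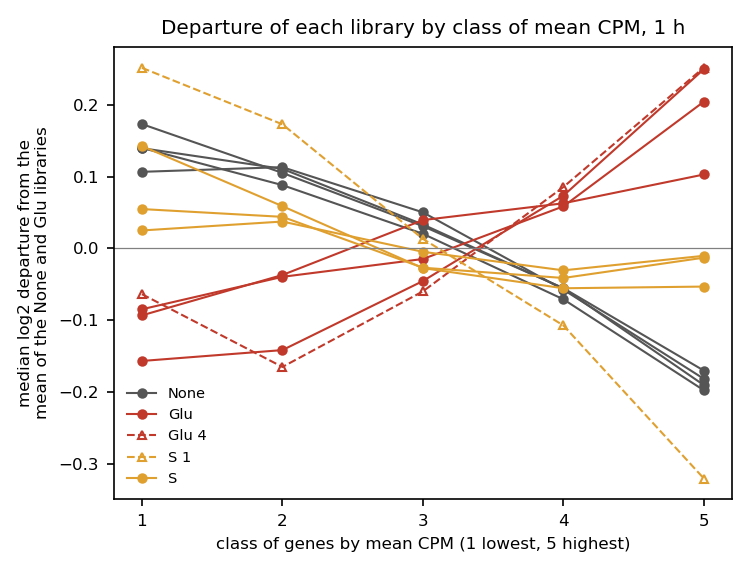
Median log2 departure of each library at 1 h from the mean of the None and Glu libraries, for 5 classes of genes by mean CPM, 1 the lowest and 5 the highest. Lines are single libraries of None, Glu and S, with Glu replicate 4 and S replicate 1 dashed. In class 5 the Glu libraries lie at 0.10 to 0.25 and the None libraries at -0.20 to -0.17.

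The counts were also more concentrated in Glu than in None. The 100 genes with the most counts in each library held 22.4, 22.7, 20.5 and 22.1% of the total in None replicates 1 to 4 and 27.7, 28.1, 26.4 and 28.6% in Glu replicates 1 to 4. The groups did not overlap, with means of 21.9% ± 0.969 and 27.7% ± 0.913 (SD, n = 4 each). An exact two-sided permutation test over libraries gave p = 0.0286, the smallest p that 4 against 4 allows. Without Glu replicate 4 the difference of 5.77 percentage points was 5.48. In S the share was 22.7% in replicate 1 and 25.4, 27.1 and 26.4% in replicates 2, 3 and 4, which overlapped Glu (exact permutation p = 0.0571). It was 26.9, 26.2 and 24.7% in the AZD replicates and 32.1, 32.5, 31.5 and 30.5% in GA replicates 1 to 4. Every AZD library and S replicates 2 to 4 thus lay above every None library, so a higher share than in None was not particular to Glu. Between None and Glu 2171 genes gained share and 10187 lost it. The gain summed to 16.6 percentage points of all counts, and 61 genes made up 50% of it, whereas 820 genes made up 50% of the loss.

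The samples labelled GA and AZD bear on glucose in the presence of the inhibitor if GA holds both additions, as its initials allow and the labels do not state. GA against AZD shares no library with Glu against None. It called 4817 genes (39.7%), 2692 rising (22.2%) and 2125 falling (17.5%). Of the 2124 genes that rose in Glu, 1444 (68.0%) rose in GA against AZD and 11 fell, and the 1444 made up 53.6% of its rises. Of the 1657 that fell in Glu, 907 (54.7%) fell and 24 rose, and the 907 made up 42.7% of its falls. Among genes changed at least 2-fold by glucose, 461 of the 577 risen rose and 0 fell, and 186 of the 303 fallen fell and 2 rose. The risen genes had a median log2 difference of 0.64 between GA and AZD and the fallen genes -0.53, against 0.00 over all genes tested. Across the 12142 genes, which are not independent, the log2 fold changes had r = 0.53, and 0.54 without Glu replicate 4.

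The difference between these differences, (GA minus AZD) less (Glu minus None), passed for 547 genes (4.51%), 292 with a higher value in GA against AZD (2.4%) and 255 with a lower one (2.1%). Among the 2124 risen in Glu, 74 had a lower value in GA against AZD and 31 a higher one. Among the 1657 fallen, 103 had a value that was less negative or positive and 28 one that was more negative. The 74 had medians of 0.83 in Glu against None and -0.11 in GA against AZD, and the 103 had medians of -0.78 and 0.26, genes chosen by this difference. The Glu and None libraries enter both the choice of risen and fallen genes and this difference, so the counts are a description. The number of genes that passed was not stable to single libraries. Leaving out Glu replicate 4 gave 385 (3.17%) and leaving out Glu replicate 3 gave 1297. Leaving out None replicate 1, 2 or 3 gave 336, 326 or 998, and the counts were 297 without AZD replicate 3 and 361 without GA replicate 4. Without Glu replicate 4 the 74 and 31 among the risen genes became 42 and 19, and the 103 and 28 among the fallen became 80 and 35.

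All 4 named genes changed in GA against AZD in the direction they took in Glu. Cz01g21060 went from 21.4, 19.1 and 26.2 CPM in AZD to 149.7, 199, 116 and 121 CPM in GA, or log2 2.72 ± 0.43 (adjusted p = 6.82e-06, edgeR). The difference from its rise in Glu was -1.88 ± 0.54 (adjusted p = 0.0390, edgeR), but without Glu replicate 4 it was -1.43 ± 0.51 and did not pass (adjusted p = 0.120). AZD already held more of this gene than None, at 22.2 ± 3.58 CPM (n = 3) against 7.80 ± 1.89 (n = 4). Cz07g18160 was at 9825 to 13119 CPM in AZD and 19262 to 41873 CPM in GA (log2 1.37 ± 0.27). Cz01g06080 was at 31.4 to 37.9 CPM in AZD and 3.32 to 7.18 CPM in GA (log2 -2.52 ± 0.33). Cz11g26070 was at 1600 to 1840 CPM in AZD and 391 to 681 CPM in GA (log2 -1.62 ± 0.19). For these last 3 genes the difference from the change in Glu did not pass (adjusted p = 0.301, 0.168 and 0.0934). Their means in AZD also lay apart from those in None, a difference not tested here. They were 12008 against 5884 CPM at Cz07g18160, 33.7 against 70.3 at Cz01g06080 and 1734 against 975 at Cz11g26070.

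**Figure D5:**
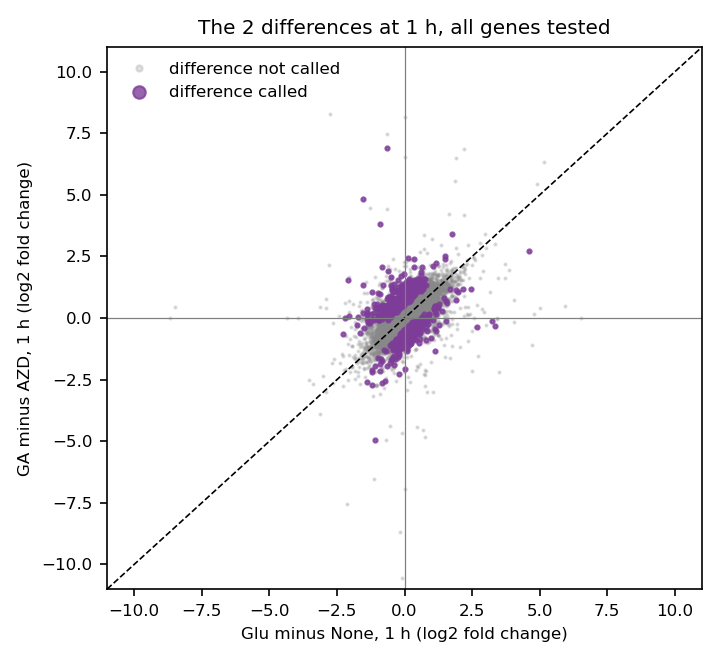
Log2 fold changes of all 12142 genes tested in Glu minus None (horizontal) and GA minus AZD (vertical) at 1 h, with a dashed line of equality. Purple points are the 547 genes whose 2 differences were themselves different at an adjusted p under 0.05. Over all points r = 0.53.

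At 24 h glucose was again set against None. The title prefix of these libraries is not that of the 1 h libraries, so the effect of time and that of the prefix cannot be told apart. Of 12142 genes 8351 (68.8%) were called there, which is the background for what follows. Of the 577 genes risen at least 2-fold at 1 h, 404 rose at 24 h, where 32.8% of all genes tested rose, and 63 fell. Of the 303 fallen at least 2-fold, 158 fell at 24 h, where 36% of all genes fell, and 45 rose. The test of the difference between the times passed for 6876 of all genes (56.6%), 25.3% towards a higher and 31.3% towards a lower value at 24 h. It passed for 205 of the 577 towards a lower value at 24 h and 132 towards a higher one, and for 131 of the 303 towards a higher value and 47 towards a lower one. The 1 h libraries enter both the choice of these genes and this test, so the counts are a description.

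Each of the 4 named genes kept its direction at 24 h. Cz07g18160 stood at 192 to 261 CPM in None and 2241 to 3178 CPM in Glu at 24 h, both below their levels at 1 h, and its log2 change of 3.56 ± 0.27 exceeded that at 1 h by 1.57 ± 0.34 (adjusted p = 0.000224, edgeR). Cz11g26070 stood at 802 to 1109 CPM in None and 109 to 149.8 CPM in Glu, and its log2 change was -2.91 ± 0.19. The difference from 1 h was -2.03 ± 0.26 (adjusted p = 3.88e-08, edgeR). Cz01g21060 was at 0 to 3.04 CPM in None and 11.7 to 16.3 CPM in Glu, and Cz01g06080 at 305 to 326 and 39.4 to 57.2 CPM. For Cz01g21060 and Cz01g06080 the difference between the times did not pass (adjusted p = 0.0543 and 0.115).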

How the data were processed

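Libraries were made by poly(A) selection, sequenced from both ends and trimmed by BBDUK, per the labels' protocols. Salmon and DESeq2 1.46.0 appear in the submitters' processing notes, which assign them no role. The build, the annotation and the use of strand were not given in the sources available. What the authors deposited was an estimated count for each gene and library, not scaled for depth (12459 genes, 48 with no count, 0 columns of other samples). Reads of near-identical or overlapping genes may be divided between IDs.

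Estimated counts were rounded and tested with edgeR 4.0.16 (R 4.3.3). filterByExpr (minimum count 10, minimum total 15) kept 12142 genes. A single quasi-likelihood fit covered 38 libraries with 1 mean for each group (28 residual degrees of freedom, TMM, biological coefficient of variation 0.20), with Benjamini-Hochberg adjustment. SE is the log2 fold change over the root of its F. Log2 CPM used a prior count of 2. The named genes were those with the largest rise, fall, gain and loss (folds by the smaller of the values with and without Glu replicate 4) among genes called both ways, with no overlap and a mean of at least 10 CPM in the higher group. DESeq2 1.42.0, other scalings, filters, smaller fits, the replicate block and leaving out each library were alternatives. The classes by CPM and their alternatives were chosen after seeing the data. The members, naming rule and tests were chosen with earlier results of these data known. Pathway lists could not be applied without gene names. Same-numbered libraries were not treated as pairs.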

Additional observations from a re-analysis of the deposited data

Results flagged for a closer look

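Among 16 sets of 4 values examined at the named genes, 3 were flagged for a library far from the others. The genes were chosen with these same Glu libraries and the sets share libraries, so the count is a description and was not set against chance. Glu replicate 4 stood high at Cz01g21060 (343 CPM) and low at Cz01g06080 (2.34 CPM), and Glu replicate 3 stood low at Cz07g18160 (14108 CPM). S replicate 1 at Cz01g06080, at 13.8 CPM where the other S libraries held 47.8 to 67.1 CPM, was not among those flagged.

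Cz01g21060 rose less from AZD to GA than from None to Glu, with a difference of -1.88 on the log2 scale that did not pass without Glu replicate 4. Between 24 h and 1 h the glucose difference moved by 1.57 at Cz07g18160 and by -2.03 at Cz11g26070. Over all genes, 547 differed in the first of these contrasts and 6876 in the second, where time and title prefix cannot be told apart.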

How the results depend on the processing

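The 4 named genes kept their direction and their calls under every alternative run. Without single libraries the difference in the top 100 genes' share was 5.30 to 6.19 percentage points and that between classes 0.59 to 0.66. The exact p of the share is the smallest the design allows and says nothing of stability. With library totals alone 6586 genes were called, with 189 rising and 1389 falling at least 2-fold. The rising share of 56.2% was 52.6% with DESeq2 size factors, 11.0% with library totals, 51.3% with None replicate 1 as TMM reference, 51.6% with no filter, 52.1% with a stricter filter (5 CPM in 4 libraries), 54.2% in a fit of the groups compared, 46.3% with libraries at 1 h only and 51.9% in DESeq2; without single libraries it was 50.8 to 58.8%.

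The 547 genes whose change differed between GA against AZD and Glu against None became 217 in the groups compared, 118 at 1 h only and 966 in DESeq2. Without single libraries they numbered 297 to 1297. S against None called 1 gene with DESeq2 size factors, the other TMM reference, no filter or the stricter filter, 3 with library totals, 29 in the groups compared, 64 in DESeq2, 156 without Glu replicate 4 and S replicate 1, and 1 to 77 without single libraries. With libraries at 1 h only edgeR called 0, and 1291 had an unadjusted p under 0.05. Glu against S gave 1479 in the groups compared. The left-out Glu replicate 4 lay on the called side at 93.5% of genes, at 95.6% of those changed at least 2-fold and at 96.3% with library totals; the other Glu replicates gave 89.3 to 98.3%. The cause of these shifts was not tested, and in the smaller fits the number of libraries changed together with the filter, spread and scaling.

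With the replicate number as a block, 3494 genes were called in Glu against None and 379 in the contrast with GA and AZD. Same-numbered Glu and None libraries had correlations of departures from -0.32 to 0.09, and 1 of 4 Glu libraries matched its own number best, so the numbers were not read as a pairing.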
